A study of Mus musculus with 6 samples.

Results

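The T-box factors are transcription factors that share a DNA-binding domain, the T-box. The 8 genes described here, Tbx1, Tbx2, Tbx3, Tbx4, Tbx5, Tbx15, Tbx18 and Tbx20, were found by symbol among 35975 genes with counts in mouse interscapular brown fat. They are 8 of the 17 T-box genes of the table, chosen by family with the values of these libraries known: Tbx3 was picked for its higher level in the 2 Olfm4CKO than in the 2 Ctrl libraries used, and 7 relatives were listed beside it. Every difference between groups in these 8 genes is therefore given as a description, with estimates and intervals but no p-value. Messenger RNA came from C57BL/6 mice, either controls (Ctrl) or Olfm4CKO mice, in which Cre recombinase under the brown adipocyte gene Ucp1 acts on floxed Olfm4. Olfm4 encodes a secreted glycoprotein, and such a deletion would leave the gene intact in vessel, nerve, stromal and immune cells. Whether the controls carry Cre or floxed alleles, the age and sex of the mice, and whether a library is 1 mouse are not stated. The titles of the Olfm4CKO samples also carry a wild-type tag, so the genotype field was followed.

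Of 3 libraries per group, replicates 1 and 2 could be used, with 15346705 to 17309325 counts each. The replicate 3 columns do not follow the gene names (rank correlation with the other columns -0.0209 to -0.0156) and gave no value per gene. Olfm4 had 0 counts in all 4 libraries, so it does not check the labels. Ctrl replicate 1 stood apart by sex-linked transcripts. In CPM, the counts of a gene relative to the scaled library total, it had 175 over 4 Y-linked genes and 0 CPM of Xist, while the other 3 libraries had no Y-linked count and 49.5, 215 and 207 CPM of Xist. Without that library, the log2 fold change of Olfm4CKO over Ctrl was 1.57 for Tbx3, 0.26 for Tbx2 and 0.64 for Tbx5. It was 0.15 for Tbx15 and 0.75 for Tbx18. The values below are from all 4 libraries unless a library is said to be left out, and the summaries of gene lists are not given without it. All 15 brown adipocyte markers had counts, with Ucp1, the uncoupling protein of brown fat, at 5885 and 10210 CPM in Ctrl and 4815 and 2944 CPM in Olfm4CKO.

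T-box proteins bind a short DNA element and switch genes on or off. Tbx2 and Tbx3 act mainly as repressors, with roles in limb, mammary gland, heart conduction tissue and cell cycle arrest. Tbx4 and Tbx5 direct hindlimb and forelimb growth, Tbx1 and Tbx20 act in pharyngeal and heart development, and Tbx18 marks epicardium and mural cells, the pericytes and smooth muscle of vessels. In fat, Tbx15 takes part in brown and beige adipocyte differentiation, and Tbx1 is used as a marker of beige adipocytes, the inducible thermogenic cells of white depots.

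The members are related in sequence, which bears on whether reads of one could be counted for another. The coding stretches below, from GENCODE transcripts on GRCm38, are the best-matching 120 bases without gaps of 2 closely related couples, with differing bases in capitals. They are positions 284 to 403 of the coding sequence in Tbx2 and 278 to 397 in Tbx3, and 458 to 577 in Tbx15 and 554 to 673 in Tbx18.
Tbx2: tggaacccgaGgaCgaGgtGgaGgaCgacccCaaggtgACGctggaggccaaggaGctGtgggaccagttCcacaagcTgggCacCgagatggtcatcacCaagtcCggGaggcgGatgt
Tbx3: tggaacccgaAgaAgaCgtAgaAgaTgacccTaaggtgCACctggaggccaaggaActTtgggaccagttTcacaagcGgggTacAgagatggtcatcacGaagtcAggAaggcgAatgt
Tbx15: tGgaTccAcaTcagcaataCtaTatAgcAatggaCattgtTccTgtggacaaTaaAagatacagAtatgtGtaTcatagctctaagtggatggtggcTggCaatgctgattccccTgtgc
Tbx18: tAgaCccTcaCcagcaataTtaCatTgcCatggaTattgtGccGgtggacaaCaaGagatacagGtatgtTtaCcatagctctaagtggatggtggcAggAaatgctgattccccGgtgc
Tbx2 and Tbx3 differed at 20 of these 120 bases, and Tbx15 and Tbx18 at 19. Over all 28 couples of members, the longest identical run between their longest coding transcripts was 12 to 32 bases, and it was 14 bases for Tbx2 and Tbx3. The read length is not given in the sources used here.

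Tbx3 had the highest level per transcript length of the 8 members in each library. It lies on chromosome 5 (119670534 to 119684724, GRCm38), in a cluster with Tbx5, whose start is 111789 bases further on. Tbx3 had 21.1 and 18.0 CPM in Ctrl replicates 1 and 2 and 60.7 and 46.0 CPM in Olfm4CKO replicates 1 and 2, from 337, 303, 940 and 723 counts. Both Olfm4CKO libraries were above both Ctrl libraries, and the gap between the groups was wider than the gap within either. The group means were 19.5 ± 2.22 CPM and 53.3 ± 10.4 CPM (SD, n = 2 each). The log2 fold change was 1.45 ± 0.34 (SE), or 2.73-fold with a 95% interval of 1.62 to 4.60 from edgeR's quasi-likelihood fit. Of the 13573 genes in the fit, 0.928% had a log2 fold change at least as high. With 1 library left out, the log2 fold change of Tbx3 ran from 1.25, without Olfm4CKO replicate 1, to 1.63, without Olfm4CKO replicate 2. Leaving out Ctrl replicate 1, which carries the Y-linked reads, gave 1.57.

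Tbx2, the closest relative of Tbx3 among the members, overlapped between the groups. Tbx2 (chromosome 11, 85832615 to 85841948) had 15.03 and 10.8 CPM in Ctrl and 15.7 and 10.2 CPM in Olfm4CKO. The groups overlapped, and replicate 1 was above replicate 2 in both, by 1.39 times in Ctrl and 1.54 times in Olfm4CKO. The log2 fold change was 0.00 ± 0.39 (SE; 95% interval -0.86 to 0.87), and it ran from -0.32 to 0.28 with 1 library left out. Per mean transcript length, the ratio of Tbx3 to Tbx2 within a library was 1.62 and 1.92 in Ctrl and 4.47 and 5.22 in Olfm4CKO.

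Tbx5 (chromosome 5, 119796514 to 119885220), neighbour of Tbx3 on the chromosome, had 8.52 and 8.36 CPM in Ctrl and 10.7 and 15.3 CPM in Olfm4CKO. The Ctrl libraries were nearly level, both Olfm4CKO libraries lay above them, and the Olfm4CKO libraries were far apart. The log2 fold change was 0.63 ± 0.39 (SE; 95% interval -0.24 to 1.49), which became 0.34 when Olfm4CKO replicate 2 was left out and 0.88 when replicate 1 was. Its order within Olfm4CKO was opposite to that of Tbx3, which was higher in replicate 1.

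**Figure D1:**
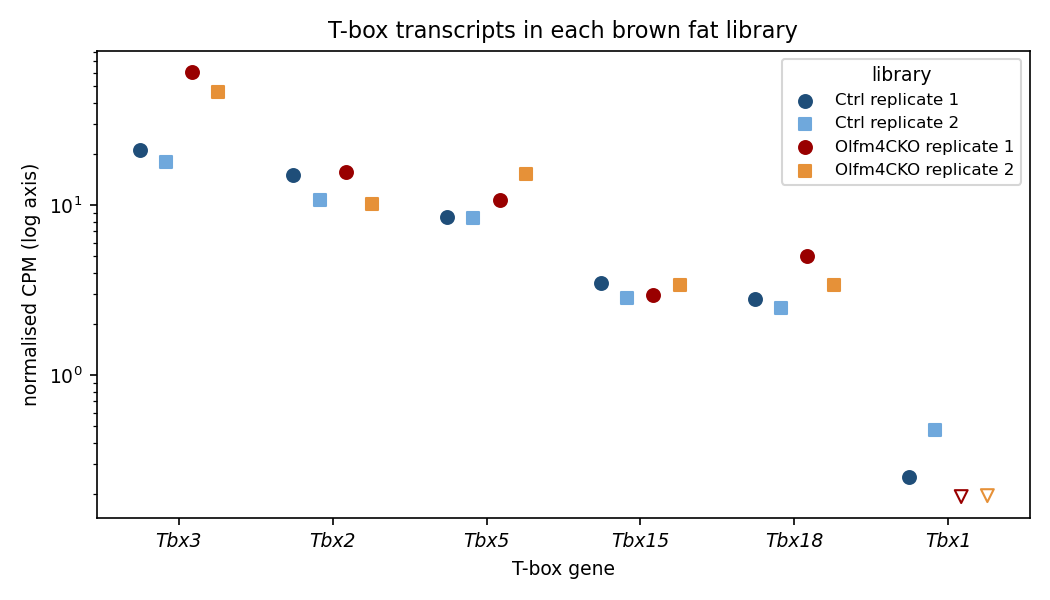
Normalised CPM (log axis) of the 6 members with any count, with 1 point per library, blue for Ctrl and red or orange for Olfm4CKO. Open triangles mark the limit of 3 counts for libraries with 0 counts of Tbx1. Tbx3 sits at 18.0 to 21.1 CPM in Ctrl and 46.0 to 60.7 CPM in Olfm4CKO, while the points of Tbx2 and Tbx15 overlap.

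Tbx18 and Tbx15, whose proteins belong to one branch of the family, were low and differed in pattern. Tbx18 (chromosome 9, 87702800 to 87731260) had 2.82 and 2.49 CPM in Ctrl and 5.04 and 3.37 CPM in Olfm4CKO, from 42 to 78 counts a library. Both Olfm4CKO libraries were above the Ctrl libraries, and replicate 1 was the higher in each group. The log2 fold change was 0.66 ± 0.53 (SE; 95% interval -0.50 to 1.82), falling to 0.36 without Olfm4CKO replicate 1 and reaching 0.92 without Olfm4CKO replicate 2. Tbx15 (chromosome 3, 99240348 to 99354260) had 3.51 and 2.85 CPM in Ctrl and 2.97 and 3.37 CPM in Olfm4CKO. The groups overlapped, and the log2 fold change was 0.00 ± 0.52 (SE), with a range of -0.14 to 0.15 over the libraries left out. The 95% interval of its fold change was 0.448 to 2.23.

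Tbx1 (chromosome 16, 18580979 to 18590671) was close to the detection limit. It had 4 and 8 counts in Ctrl replicates 1 and 2 and 0 in both Olfm4CKO libraries, too few to be tested. Pooled over both libraries, Ctrl had 0.361 CPM, while the level of 3 counts over both Olfm4CKO libraries was 0.0971 CPM. The Ctrl level was 3.72 times this limit, which allows for counting error in Olfm4CKO but not in the 12 Ctrl counts. The limb gene Tbx4 (chromosome 11, 85886367 to 85916097) and the heart gene Tbx20 (chromosome 9, 24720812 to 24774303) had 0 counts in all 4 libraries. This allows each up to 0.173 to 0.195 CPM in a library.

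Together, 5 of the 8 members had enough counts to enter the fit, with a median log2 fold change of 0.63, against -0.01 over all genes tested. The log2 fold change was above 0 for 4 of the 5, among them Tbx2 at only 0.003, where 48.6% of all genes were. Both Olfm4CKO libraries were above both Ctrl libraries for 3 of the 5, where 11.8% of all genes tested were placed that way, and 0 of the 5 were below, against 12.8%. The adjusted edgeR threshold called 0% of all genes, the members among them. Nothing is read from these counts because the difference in Tbx3 led to the choice of members. Of 13573 genes, 287 had an unadjusted edgeR p below 0.05 (2.11%), with 1.5% higher and 0.612% lower in Olfm4CKO. DESeq2 called 1 gene (0.00737%), edgeR with a replicate block 4 (0.0295%) and limma-voom 0. The 95% interval of a gene reached, in the median, 0.89 to either side on the log2 scale, at a biological coefficient of variation of 32.6%.

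**Figure D2:**
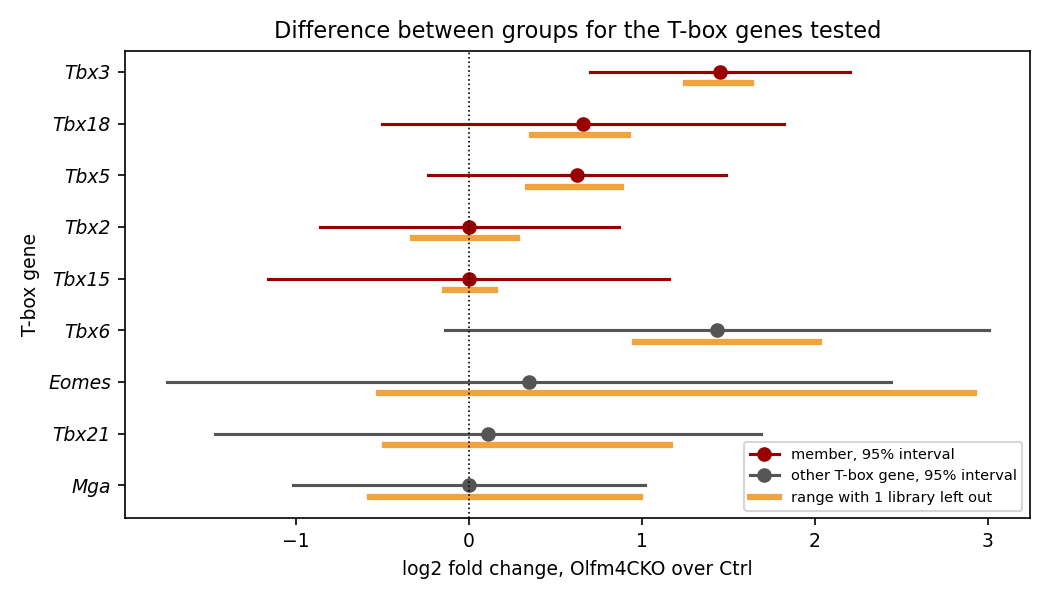
Log2 fold change of Olfm4CKO over Ctrl for the 9 T-box genes tested, as points with 95% intervals from the quasi-likelihood fit, red for members and grey for other T-box genes. Orange bars give the range with 1 library left out. Tbx3 lies at 1.45 with an orange bar from 1.25 to 1.63, and Tbx2, Tbx15 and Mga lie at 0.00.

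The reads of the 8 members, which also depend on transcript length, were shared out as follows. Tbx3 took 41.2% of the reads of the 8 members in Ctrl replicate 1 (Wilson 95% interval 37.9% to 44.6%) and 41.9% in replicate 2 (38.3% to 45.5%). In Olfm4CKO it took 63.8% in replicate 1 (61.3% to 66.2%) and 58.8% in replicate 2 (56.0% to 61.5%). These intervals cover counting error within a library only, and the higher share in Olfm4CKO follows from how Tbx3 was picked. The other members together summed to 30.1 and 24.96 CPM in Ctrl and 34.4 and 32.2 CPM in Olfm4CKO.

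Per transcript length, Tbx3 also led. Dividing CPM by the mean GENCODE transcript length in kilobases gave a level per length (FPKM) for Tbx3 of 6.73 and 5.73 in Ctrl and 19.4 and 14.7 in Olfm4CKO. Over the 4 libraries, Tbx3 averaged 11.6 FPKM, Tbx5 5.58, Tbx2 3.56, Tbx15 2.09, Tbx18 1.34 and Tbx1 0.101. Over all libraries the ranges of Tbx3 (5.73 to 19.4) and Tbx5 (4.35 to 7.97) overlapped, and those of Tbx5 and Tbx2 (2.81 to 4.33) nearly met. Tbx15 (1.88 to 2.31) and Tbx18 (0.976 to 1.97) overlapped. The order of Tbx5 and Tbx2 turned with the longest transcript as the length, where Tbx5 had 2.72 and Tbx2 3.56. With that length Tbx3 averaged 7.31 FPKM and its lowest library, 3.61, lay within the range of Tbx2.

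**Figure D3:**
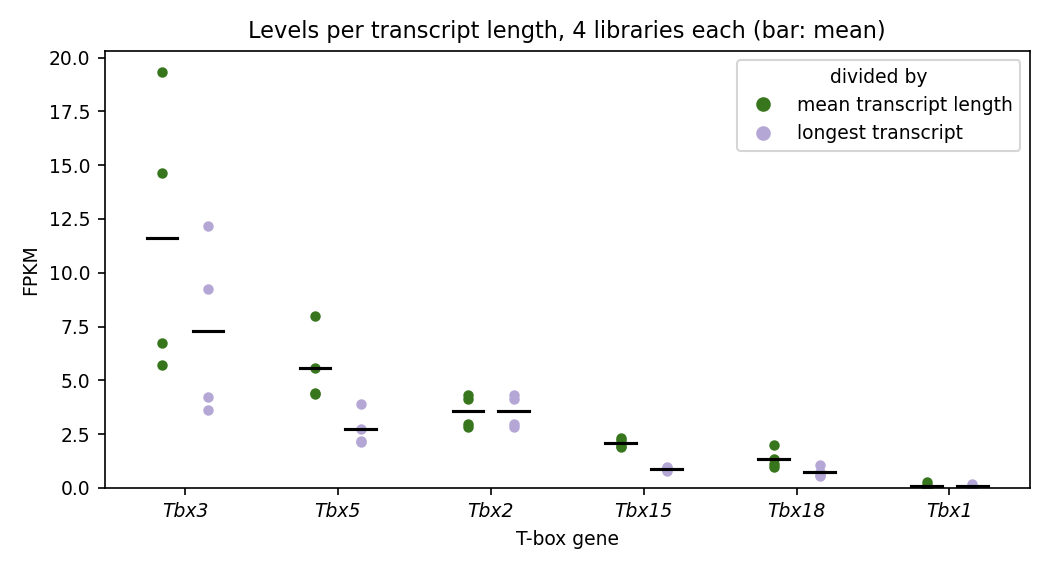
FPKM of 6 members in 4 libraries (points) with their mean (black line), divided by the mean transcript length (green) or by the longest transcript (violet). Tbx3 has the highest mean under both lengths (11.6 and 7.31), and Tbx5 falls from 5.58 to 2.72 while Tbx2 stays at 3.56.

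In a whole depot, a change in the number of cells of a type and a change in RNA per cell cannot be told apart, so marker levels were set beside the members. The 15 endothelial markers summed to 1589 and 1427 CPM in Ctrl and 2594 and 1941 CPM in Olfm4CKO. Among them Pecam1, an adhesion molecule of vessel lining, had 179 and 149 CPM in Ctrl and 222 and 174 CPM in Olfm4CKO, and Kdr, the main VEGF receptor, 221 and 179 against 329 and 297 CPM. All 15 had a log2 fold change above 0 (median 0.62), and 0 passed edgeR's threshold (1 at an unadjusted p below 0.05). The 4 libraries ranked in the same order by these markers as by Tbx3. Tbx3 per 100 CPM of endothelial markers was 1.33 and 1.26 in Ctrl and 2.34 and 2.37 in Olfm4CKO. The groups did not overlap in this ratio, which is a description only, because Tbx3 was picked for its difference between these libraries. For Tbx18 the ratio was 0.177 and 0.175 in Ctrl and 0.194 and 0.174 in Olfm4CKO, and these overlapped. For Tbx5 it was 0.536 and 0.586 in Ctrl and 0.413 and 0.789 in Olfm4CKO, with overlap as well. How much of the difference in Tbx3 goes with vessel content was not tested.

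Mural cell markers overlapped between the groups. They summed to 1077 and 877 CPM in Ctrl and 988 and 952 CPM in Olfm4CKO, with 7 of 14 tested markers above 0 and a median log2 fold change of 0.00. Among them Pdgfrb, the platelet-derived growth factor receptor of pericytes, had 62.9 and 53.7 CPM in Ctrl and 52.6 and 58.6 CPM in Olfm4CKO. Tbx3 per 100 CPM of mural markers was 1.96 and 2.05 in Ctrl and 6.14 and 4.83 in Olfm4CKO. Tbx18 per 100 CPM of mural markers was 0.262 and 0.284 in Ctrl and 0.510 and 0.354 in Olfm4CKO.

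Progenitor and fibroblast markers lay lower in Olfm4CKO for 13 of 15 genes (median log2 fold change -0.28), and 0 passed edgeR's threshold (1 at an unadjusted p below 0.05). Their sums overlapped, at 2144 and 3002 CPM in Ctrl and 1644 and 2516 CPM in Olfm4CKO. Tbx3 per 100 CPM of these markers was 0.984 and 0.598 in Ctrl and 3.69 and 1.83 in Olfm4CKO. Pi16, a marker of fibroblast progenitors, had 11.1 and 15.2 CPM in Ctrl and 4.20 and 6.87 CPM in Olfm4CKO (log2 fold change -1.25 ± 0.43 SE, edgeR adjusted p = 0.9998).

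Skeletal muscle markers, a sign of neighbouring muscle in a dissected depot, summed to 96.5 and 38.8 CPM in Ctrl and 236 and 27.8 CPM in Olfm4CKO, with 14 of 15 tested above 0 (median log2 fold change 1.32). Of these, 0 passed edgeR's threshold and 2 had an unadjusted p below 0.05, in opposite directions: myoglobin (Mb) at -1.61 ± 0.43 and parvalbumin (Pvalb) at 2.14 ± 0.95 (log2 fold change, SE). The high sum of the muscle markers rested on Olfm4CKO replicate 1. With 1 library left out, the log2 fold change of Pvalb ran from -0.87 to 3.05 and that of Acta1 from -0.93 to 2.57. Tbx3 per 100 CPM of muscle markers was 21.9 and 46.3 in Ctrl and 25.8 and 165 in Olfm4CKO, which overlapped. The part of muscle in the difference in Tbx3 was not tested. Brown adipocyte markers summed to 24308 and 30767 CPM in Ctrl and 24534 and 16950 CPM in Olfm4CKO, with 11 of 15 below 0, a median of -0.17 and 0 past the edgeR threshold. The 2 at an unadjusted edgeR p below 0.05 were Ucp1 at -1.05 ± 0.45 and Slc7a10 at 1.31 ± 0.53 (log2 fold change, SE). Slc7a10, though on this list, is a transporter of white adipocytes, so the 2 are not brown markers in conflict. Lymphatic and mesothelial markers were low in the 4 libraries, at 7.56 to 16.98 CPM in sum, and Wt1, a mesothelial factor, had 0 counts. Schwann cell markers summed to 322 and 543 CPM in Ctrl and 233 and 198 CPM in Olfm4CKO, and macrophage markers to 209 and 476 against 213 and 285 CPM.

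**Figure D4:**
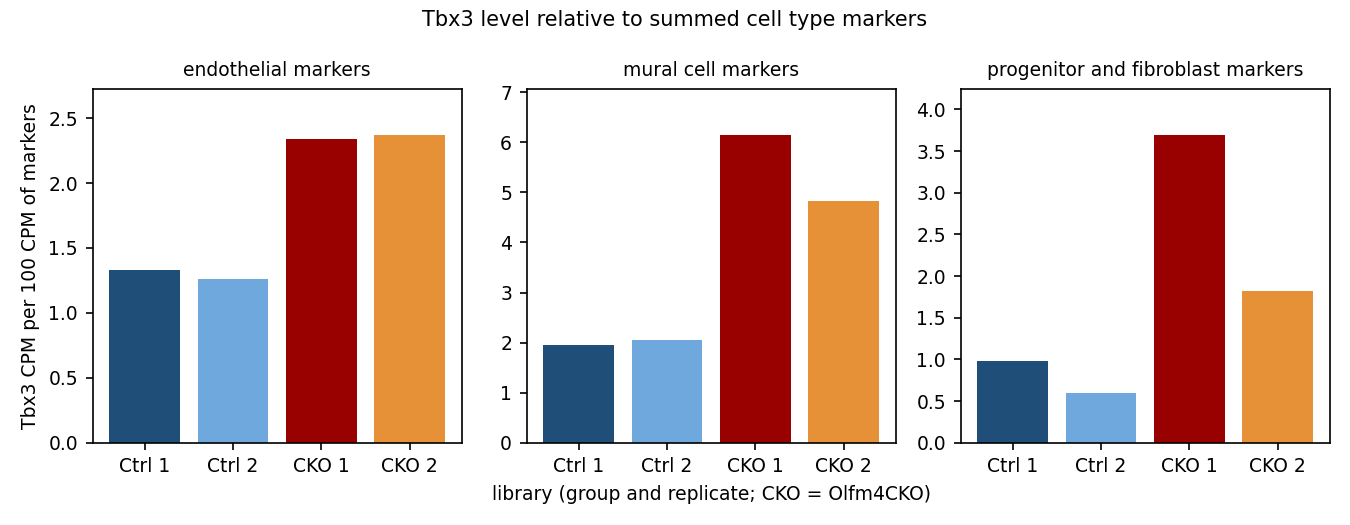
Bars give the CPM of Tbx3 per 100 CPM of summed markers in each library, for 15 endothelial, 15 mural and 15 progenitor or fibroblast markers (CKO stands for Olfm4CKO). The bars of Olfm4CKO stand above those of Ctrl in these 3 panels, at 2.34 and 2.37 against 1.33 and 1.26 for endothelial markers.

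Among the 9 T-box genes outside the members, 4 had enough counts to be tested, and 0 passed edgeR's threshold, with 0 at an unadjusted p below 0.05 and 0 called by DESeq2 or limma-voom. Tbx6, a factor of early mesoderm, had 0.501 and 1.01 CPM in Ctrl and 2.65 and 1.46 CPM in Olfm4CKO, from 8, 17, 41 and 23 counts. Both Olfm4CKO libraries were above both Ctrl libraries, and the log2 fold change was 1.43 ± 0.71 (SE, edgeR adjusted p = 0.9998). It was 0.96 without Olfm4CKO replicate 1 and 2.02 without Ctrl replicate 2.

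Tbx21 and Eomes, the T-box factors of T and NK cells, varied more within the groups than between them. Tbx21 had 0.877 and 2.73 CPM in Ctrl and 1.36 and 2.54 CPM in Olfm4CKO. The log2 difference of Tbx21, 0.11 ± 0.72 (SE, edgeR adjusted p = 0.9998), ran from -0.48 to 1.16 with 1 library left out. Eomes had 0.125 and 1.42 CPM in Ctrl and 0.711 and 1.27 CPM in Olfm4CKO. The log2 difference of Eomes, 0.35 ± 0.95 (SE, edgeR adjusted p = 0.9998), ran from -0.52 to 2.92. The summed T and NK cell markers stood at 20.9 and 97.1 CPM in Ctrl and 24.3 and 38.8 CPM in Olfm4CKO. Ctrl replicate 2 was highest and Ctrl replicate 1 lowest in all 3 measures.

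Mga, a large protein with both a T-box and a second DNA-binding domain, had 46.3 and 15.5 CPM in Ctrl and 28.6 and 33.3 CPM in Olfm4CKO, so the Olfm4CKO libraries lay between the controls, which differed by 2.98 times. Its log2 fold change was 0.00 ± 0.46 (SE, edgeR adjusted p = 0.9998), or 0.99 without Ctrl replicate 1 and -0.57 without Ctrl replicate 2. Tbx10 had 25 counts and Tbr1 2 counts over the 4 libraries, and Tbx19, Tbx22 and T (brachyury) had 0.

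The nearest genes on the chromosome ranged from 0 counts to levels that could be tested. Tbx3os1, an antisense transcript whose RefSeq span overlaps the start of Tbx3 by 975 bases, had 4 and 3 counts in Ctrl and 8 and 3 in Olfm4CKO. The strand setting of the counting is not given, so reads of this overlap cannot be assigned to one gene with certainty. Tbx3os2, 363 bases beyond Tbx3, had 0 counts, as had Gm16064 on the other side. Tbx4, 44418 bases from Tbx2, was silent beside an expressed neighbour. Gnb1l, next to Tbx1, and Cep162, next to Tbx18, had enough counts to be tested, with log2 fold changes of 0.30 ± 0.51 and 0.56 ± 0.58 (SE, edgeR adjusted p = 0.9998 each).

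Sequence windows of 250 bases before to 50 after a start were available from RefSeq (GRCm38.p6) for Tbx1, Tbx4, Tbx18 and Tbx20. They were searched on both strands for AGGTGTGA, the core of the T-box element, and for its first 6 letters, AGGTGT, which the longer motif contains. Of 32851 windows of all genes, 1.28% held the longer and 13.7% the shorter motif. The 8-letter motif was in no member's window, and the shorter one was in 1, a start of Tbx1. A match of letters is a description of the window, not a binding site.

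Cofactors that T-box proteins work with held no called gene. Of 30 listed cofactors, 19 were tested, 12 lay above 0 and 7 below (median log2 fold change 0.35), and 0 passed edgeR's threshold, with 3 at an unadjusted p below 0.05. The heart factors Nkx2-5, Gata4, Gata5, Isl1, Hand1, Hand2 and the homeobox gene Msx2 had 0 counts. Pdlim7, a scaffold protein that binds Tbx5 and Tbx4, had 8.77 and 15.4 CPM in Ctrl and 29.1 and 17.6 CPM in Olfm4CKO (log2 fold change 0.95 ± 0.41 SE). Hes1, a Notch target, had 18.2 and 27.1 in Ctrl against 31.8 and 50.8 CPM (0.87 ± 0.37 SE). Mef2c, a partner factor in heart and muscle, had 14.0 and 7.47 against 18.3 and 21.2 CPM (0.88 ± 0.40 SE), and the coactivator Wwtr1 had 83.9 and 55.8 against 115 and 91.8 CPM (0.57 ± 0.36 SE). The groups did not overlap for these 4 genes, which were named for their low p (edgeR adjusted p = 0.9998 each). Over the list, 5 of 19 lay higher without overlap and 0 lower, where 11.8% and 12.8% of all genes did.

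Genes known as T-box targets from heart, limb and cell lines showed no shared direction. Of 32 listed targets, 15 were tested, 7 lay above 0 and 8 below (median log2 fold change -0.01), and 0 passed edgeR's threshold, with 1 at an unadjusted p below 0.05. Bmp4, a growth factor of limb and heart, had 15 and 12 counts in Ctrl and 3 in each Olfm4CKO library, or 0.939 and 0.711 against 0.194 and 0.191 CPM (log2 fold change -2.06 ± 0.86 SE, edgeR adjusted p = 0.9998). The Notch ligand Dll4 had 24.3 and 21.2 against 51.3 and 28.0 CPM (0.80 ± 0.37 SE), and Flt4, a receptor of lymphatic vessels, 15.8 and 9.78 against 18.9 and 16.7 CPM (0.48 ± 0.38 SE). The groups of these 3 genes did not overlap, and Dll4 and Flt4 are themselves endothelial genes. Of the 15, 3 lay higher and 3 lower without overlap, beside 11.8% and 12.8% of all genes.

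Signals that act upstream of T-box genes in embryos were tested in 27 of 31 cases, 18 above and 9 below 0 (median 0.13), and 0 passed edgeR's threshold, with 1 at an unadjusted p below 0.05. Smad7, a feedback inhibitor of TGF-beta and BMP signals, had 11.6 and 14.9 CPM in Ctrl and 21.8 and 30.4 CPM in Olfm4CKO (log2 fold change 0.98 ± 0.36 SE). Id2, a BMP-responsive inhibitor of differentiation factors, had 68.9 and 46.8 against 22.02 and 43.7 CPM (-0.82 ± 0.40 SE). The retinoic acid enzyme Aldh1a1 had 4.82 and 6.82 against 4.13 and 2.16 CPM (-0.89 ± 0.53 SE), and the BMP effector Smad1 19.2 and 11.03 against 24.8 and 20.1 CPM (0.57 ± 0.38 SE). These 4, again the lowest in p, did not overlap between groups (edgeR adjusted p = 0.9998 each). Of all 27, 3 lay higher and 5 lower without overlap, beside 11.8% and 12.8% of all genes.

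Genes that mark fat depots beside Tbx15 and Tbx1 were tested in 22 of 27 cases, 12 above and 10 below 0 (median 0.03), and 0 passed edgeR's threshold, with 1 at an unadjusted p below 0.05. Slc7a10, an amino acid transporter of white adipocytes that the brown adipocyte list also holds, had 2.38 and 2.55 CPM in Ctrl and 8.14 and 4.13 CPM in Olfm4CKO (log2 fold change 1.31 ± 0.53 SE). Cited1, a beige marker like Tbx1, had 0.438 and 0.356 against 1.49 and 0.636 CPM (1.40 ± 0.81 SE), while Tbx1 had its 12 counts in Ctrl. Epsti1, a brown fat marker, had 3.57 and 7.59 against 2.78 and 2.99 CPM (-0.95 ± 0.54 SE), and Gpc4, a glypican of white depots, 31.5 and 24.3 against 35.8 and 45.8 CPM (0.55 ± 0.34 SE). Each had an edgeR adjusted p of 0.9998. The white-depot factor Tcf21 had 0 counts.

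The genes whose log2 CPM was most like that of Tbx3 over the 4 libraries, by Pearson's r, were Gm42005, Dbf4, Zfp618, Pik3r3 and Adamts1, with r of 0.999 for each. Of 3971 genes with an SD of at least 0.5, 18 (0.453%) had an r above 0.99 and 95 (2.39%) above 0.95. Over 4 points, which also share group and library, r can be this high for unrelated genes, so nothing is read from it. Adamts1, a secreted protease, had 32.4 and 30.4 CPM in Ctrl and 74.0 and 60.5 CPM in Olfm4CKO. Pik3r3, a regulatory subunit of phosphoinositide 3-kinase, had 7.01 and 6.40 against 16.1 and 13.5 CPM. Dbf4, an activator of the replication kinase Cdc7, had 2.004 and 1.72 against 4.13 and 3.37 CPM.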

How the data were processed

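Counts per gene were deposited as 1 table whose name says FPKM. All values are whole numbers with differing column totals, so they were used as raw counts. Per the submitters' processing notes, cutadapt 1.11, HISAT2 2.1.0, featureCounts 1.6.0 and mm10 were used. The annotation, strand setting and read length were not given in the sources used here. Columns were matched to samples by name, and the replicate 3 columns were set aside because their rank correlation with the others was near 0.

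Replicates 1 and 2 of each group entered edgeR 4.0.16 (R 4.3.3): filterByExpr (minimum count 10, total 15), TMM scaling, a quasi-likelihood fit with genotype as the single term, and adjustment by Benjamini and Hochberg over all genes at 0.05. The fit was tested on simulated data with changes much larger than that of Tbx3, set only in genes with many counts. That test does not show how well changes of the size seen here would be found. CPM uses TMM-scaled library sizes. SE was obtained by dividing a log2 fold change by its root F statistic. No permutation test was made, since with 2 against 2 libraries the smallest exact two-sided p is 0.333. The labels name no separate mice, so a p-value reflects only how these libraries vary. By their sex-linked transcripts the 2 Ctrl libraries did not come from the same mouse. For Olfm4CKO this is not known, and the spread there may be technical. Intervals of shares and the limit of 3 counts cover counting error only. FPKM were computed here from GENCODE M21 lengths, and coordinates are RefSeq's on GRCm38. In correlations 0.1 CPM was added before log2.

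The members and the 17 gene lists were chosen with earlier results of these data known. Of 280 listed symbols, 273 had a row. Named genes are all T-box genes with counts, the 4 or fewer genes of each list lowest in unadjusted p, the first 3 markers where they stand beside a result, chromosomal neighbours and the 5 genes most like Tbx3. Genes of the lists named at 0 counts fall outside that rule and were chosen after their values were seen. Some items covered by the named-gene rule are not reported here. Alternatives covered the filter, scaling, DESeq2 1.42.0, limma-voom (limma 3.58.1), each library left out and the replicate number as a block.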

Additional observations from a re-analysis of the deposited data

How the results depend on the processing

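The log2 fold change of Tbx3 stayed between 1.25 and 1.63 over the libraries left out and between 1.44 and 1.48 over the filters, scalings, DESeq2, limma-voom and the block. Outside the members, 0 T-box genes passed in any of these fits. The number of genes called over the whole table was 0, and it became 1 with DESeq2, 4 with the replicate number as a block, and 6 to 27 with 1 library left out, where a group with a single library borrows its spread from the other. The median log2 fold change of the 5 members tested, 0.63, ran from 0.34 to 0.64 with 1 library left out. With the longest transcript as length, the mean level of Tbx3 was 7.31 FPKM in place of 11.6.

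Whether a replicate number marks shared mice or a shared batch is not stated. Deviations from the group means of same-numbered libraries had a Pearson's r of 0.00269 across genes. With 2 libraries per group both numbers give the same value, so it does not settle this. With the replicate block the log2 fold change of Tbx3 was 1.44. Depth limits Tbx1, Tbx4 and Tbx20, which no fit with a count filter could test, and Tbx18 and Tbx15, which had 42 to 78 counts a library.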
